A study of Homo sapiens with 3 samples.

Results

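The noncoding host genes of small nucleolar RNAs (snoRNAs) were examined in an eCLIP of the mouse pregnane X receptor (PXR). Genes were taken by symbol from the NCBI RefSeq table of GRCh38.p14, as every gene named SNHG followed by a number, plus GAS5 and DANCR. This gave 31 genes, and 41 of the 21031 peaks in the list had their centre in 1 of their spans. eCLIP recovers RNA fragments that UV light has crosslinked to a protein. The series has 1 input library and 2 immunoprecipitate replicates from LS174T, a human colon adenocarcinoma line, all transfected for 24 h with HA-tagged mouse Pxr before irradiation at 254 nm. No untransfected group is labelled, and antibodies to PXR and to HA are listed beside an IgG control, but which of them served each library is not stated. The data used here are 1 peak list for the immunoprecipitate, so every value is a single value per peak and none has a replicate error. PXR is a transcription factor of the nuclear receptor family that drugs and bile acids activate.

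A snoRNA host gene is transcribed as a long RNA whose introns carry snoRNAs. After splicing the intron is debranched and trimmed from both ends, and the proteins already bound to the snoRNA protect it. Box C/D snoRNAs (SNORD) guide ribose methylation and box H/ACA snoRNAs (SNORA) guide pseudouridylation, mainly of ribosomal RNA, while SCARNA genes make the related RNAs of Cajal bodies. Many spliced host RNAs are known to start with a pyrimidine tract, to be held back from translation with ribosomal protein messages when growth stops, and to be removed by nonsense-mediated decay.

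The list held 10995 plus-strand and 10036 minus-strand peaks, and the reads under each summit, recovered from the deposited fold and −log10 p, had a median of 21. For the host peaks and most of the list, the fold sets a summit against the 10 kb around it, the peak included. It is not an enrichment over the input library. Poisson intervals below are exact, at 95%, and cover counting error only. Intervals of shares and medians over peaks treat each peak as independent. Peaks of 1 gene share a transcript and are not replicates, so those intervals are likely too narrow. Of 10 colon epithelial and goblet cell markers 9 had a peak and KRT20 had none. The deepest were at the keratins KRT8 with 1147 reads and KRT18 with 721, the adhesion molecule EPCAM with 220 and the goblet cell mucin MUC2 with 182. Markers of hepatocytes (0 of 4), blood (0 of 3) and neurons (0 of 2) had none, and of 4 fibroblast and endothelial markers COL1A2 had 1 peak of 10 reads.

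Most of the host genes had a peak. A peak centre lay in 22 of the 31 (71.0%, exact Clopper-Pearson interval 52.0 to 85.8%), against 6.21% of all 18303 lncRNA genes and 6.10% of the 18272 that are not hosts. Hosts were shorter than other lncRNA genes, with a median of 5145 bases against 9052.5. Among the 4762 other lncRNA genes whose length lay between the hosts' quartiles, 3763 and 9603 bases, the share with a peak was 4.28%. Among 27 other lncRNA genes that hold a whole snoRNA gene it was 37.0% (19.4 to 57.6%), an interval that overlaps that of the hosts. Of the 10 such genes with a peak, 8 shared every peak with another gene. In 3 of the 10, STX18-AS1, CHD4-AS1 and LOC124901081, every peak lay on the strand opposite to the gene, and those of LOC124901081 were the SNHG4 peaks. Only ZFAS1 and LINC03006 had a peak on their strand in no other gene. Coding genes that hold a snoRNA gene outside these hosts had a peak in 201 of 248 (81.0%), against 41.6% of all coding genes. The hosts' share thus lay nearer to that of coding snoRNA hosts than to that of lncRNA genes at large, with the few other lncRNA snoRNA hosts in between. Expression values were not used here, so RNA abundance and recovery with PXR cannot be told apart in any of these shares.

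**Figure D1:**
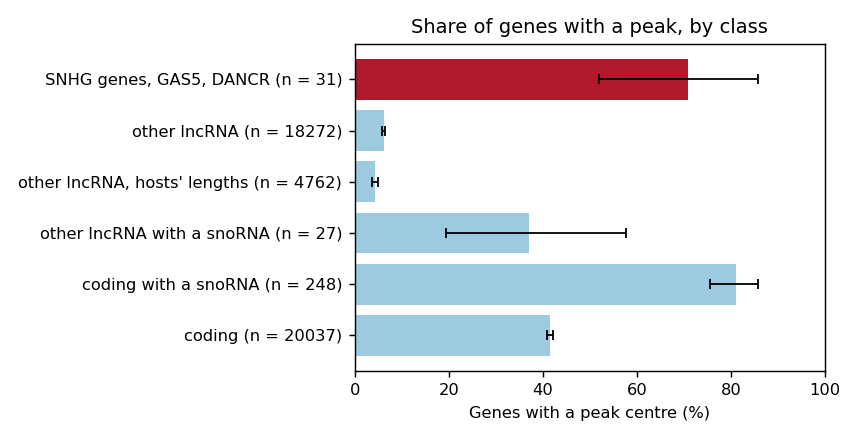
Share of genes with at least 1 peak centre in their span, in percent, by gene class, with exact Clopper-Pearson intervals as error bars and the number of genes in brackets. The 31 snoRNA host genes, at 71.0%, have an interval of 52.0 to 85.8%, which includes the coding genes that hold a snoRNA (81.0%), overlaps that of other lncRNA genes with a snoRNA (37.0%, 19.4 to 57.6%) and lies above lncRNA genes at large.

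Host peaks were deeper than the list as a whole but not much higher in fold. Their median depth was 52 reads (order-statistic interval 30 to 121), against 21 for all peaks, 19 for the 1643 peaks in other lncRNA genes and 28 (26 to 32) for the 698 peaks in coding snoRNA hosts. Without GAS5 the median was 38 reads. Over 200 reads lay under 11 of the 41 summits (26.8%), against 1.20% of all peaks. These lay in 5 hosts, and 6 of the 11 were in GAS5, without which they were 5 of 35 (14.3%, Clopper-Pearson interval 4.81 to 30.3%). The median fold was 6.51 (5.20 to 9.24), against 5.99 for all peaks and 5.84 in other lncRNA genes. Depth was very uneven. DANCR held 40.7% of the 12504 reads summed over the host summits, GAS5 35.6%, SNHG1 6.85% and SNHG29 6.17%. Of the 22 hosts 12 had a single peak, 6 had 2, and SNHG1, SNHG16, SNHG29 and GAS5 had 3 or more.

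**Figure D2:**
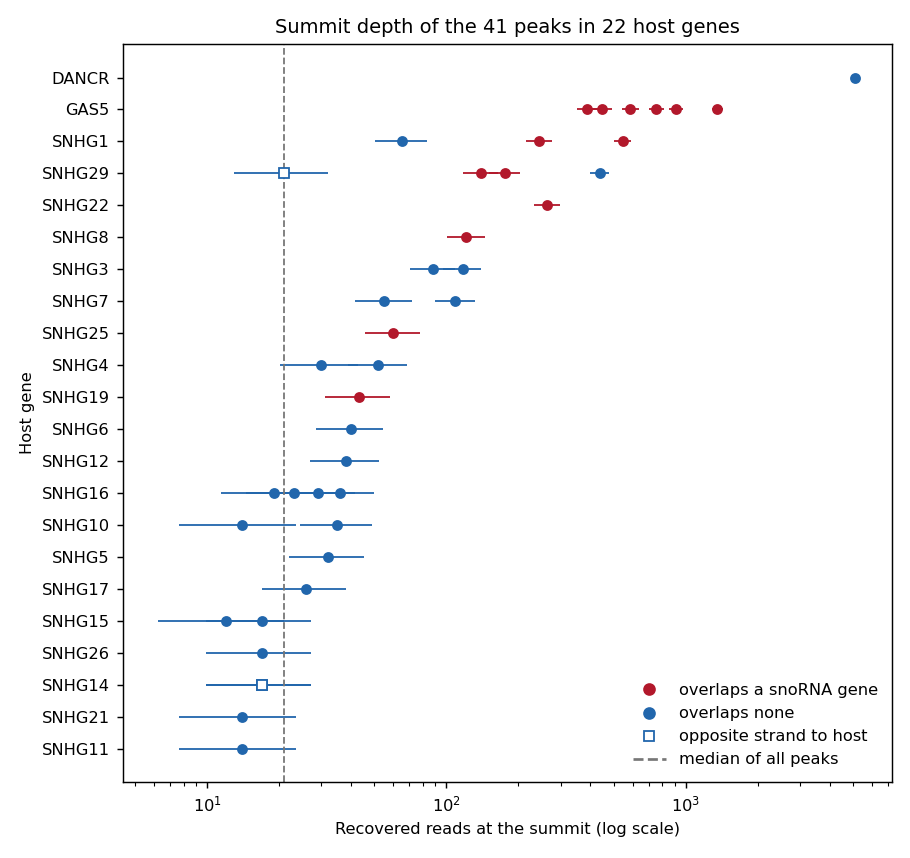
Recovered reads at the summit (log scale) of each of the 41 peaks, by host gene, with exact Poisson intervals. Red points overlap a snoRNA gene, blue points do not, open squares lie on the strand opposite to the host, and the dashed line is the median of all peaks, 21 reads. DANCR at 5090 reads and the GAS5 peaks at 388 to 1357 lie to the right of every peak of the hosts from SNHG22 downward.

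DANCR, named for a noncoding RNA that holds back cell differentiation, had the deepest peak of any lncRNA gene in the list. It lay at chr4:52712620-52712916 (hg38, plus strand, the strand of the gene), 226 bases from the gene start, and held 5090 reads (Poisson interval 4951 to 5232) at a fold of 47.5. By reads it ranked 13 and by fold 14 among the 21031 peaks, and the deepest peak in another lncRNA gene held 3528 reads. The summit took 95.9% of the 5305 reads in its 10 kb. Nearly all reads of that window thus lay at 1 site, and the gene has no other peak in its 8304 bases. The peak did not reach SNORA26, the snoRNA of this host, which begins 333 bases beyond its downstream edge. It covered the whole of MIR4449 instead, a microRNA gene inside DANCR, and its summit lay in the mature sequence. The mature and hairpin sequences are shown because they lie under this summit, with the seed (bases 2 to 8) in capitals in the first and the mature part in capitals in the second (RefSeq, GRCh38.p14, plus strand, chr4:52712720-52712741 and chr4:52712682-52712747).
hsa-miR-4449: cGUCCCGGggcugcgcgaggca
MIR4449: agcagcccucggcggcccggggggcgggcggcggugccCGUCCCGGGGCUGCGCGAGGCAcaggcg
The hairpin is 86.4% G and C. No other of the 2545 mature sequences in the table shares this seed. The peak began 62 bases upstream of the hairpin and ended 169 bases downstream of it. Its downstream edge includes the extension of the reads to 200 bases, and with that taken off the last inferred read start lay 3 bases before the mature sequence. The summit in the mature sequence thus lay downstream of every inferred read start. Read lengths were not used, so whether the sequenced reads themselves reached it is not known. Reads of the microRNA hairpin and of the host RNA near its start cannot be told apart here. Its reads far outnumber its bases, so many shared a start position, and no step that removes PCR duplicates is recorded in the labels.

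GAS5, a host named for its rise in growth-arrested cells, had the most peaks, and all 6 lay on the strand of the gene and overlapped snoRNA genes. The gene lies on the minus strand of chromosome 1. In the direction of transcription, the first peak (chr1:173867518-173867730) held 587 reads (Poisson interval 540 to 636) at SNORD74. The next (chr1:173866480-173866936) was the deepest, with 1357 reads (1286 to 1431) over SNORD75 and SNORD76. The following one (chr1:173866139-173866346) was the shallowest, with 388 reads (350 to 429) at SNORD77 and SNORA103. These 3 values differed beyond their counting intervals. The peak after it (chr1:173865192-173865683) held 914 reads (856 to 975) over SNORD78 and SNORD79. Then came a peak (chr1:173864671-173864892) of 448 reads (407 to 491) at SNORD80. The last (chr1:173863996-173864432) held 753 reads (700 to 809) over SNORD47 and SNORD81. Of the 11 snoRNA genes in GAS5 10 were thus under a peak, and SNORD44 was not. The summits of the paired peaks lay at -38 bases from the upstream end of SNORD76, -85 from that of SNORD79 and -96 from that of SNORD81. If reads were extended downstream only, the depths given for these peaks count no read that starts in SNORD76, SNORD79 or SNORD81. The deepest summit had 3.50 times the reads of the shallowest, while the 2 shallowest had overlapping intervals. The peaks covered 39.4% of the gene.

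The folds of GAS5 ran from 3.03 to 10.6, low for such depth. The 10 kb around each summit, which serve as its background, held 6345 to 6391 reads. The deepest GAS5 summit ranked 31 by reads and 2285 by fold. The shallowest, 108 by reads, ranked 20524 by fold, and 507 peaks of the list had a lower one. The fold therefore places DANCR and GAS5 far apart although both are deep, because it divides the summit by its 10 kb neighbourhood.

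SNHG1, which carries 8 SNORD genes on chromosome 11, had peaks at only 2 of them. The peak at SNORD29 (chr11:62853736-62853968, minus strand, as the gene) held 546 reads (Poisson interval 501 to 594) at a fold of 23.4. The peak at SNORD31 (chr11:62853158-62853393) held 245 reads (215 to 278) at a fold of 10.5. Another peak near the gene end (chr11:62852023-62852363) overlapped no snoRNA and held 65 reads (50.2 to 82.8) at a fold of 2.83, the lowest fold of the host peaks. The 3 depths did not overlap in their intervals. All shared a 10 kb background of 1117 reads, of which the SNORD29 summit took 48.9%. SNORD22, SNORD25, SNORD26, SNORD27, SNORD28 and SNORD30 were under no peak, so depth was uneven between snoRNAs of the same host RNA.

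**Figure D3:**
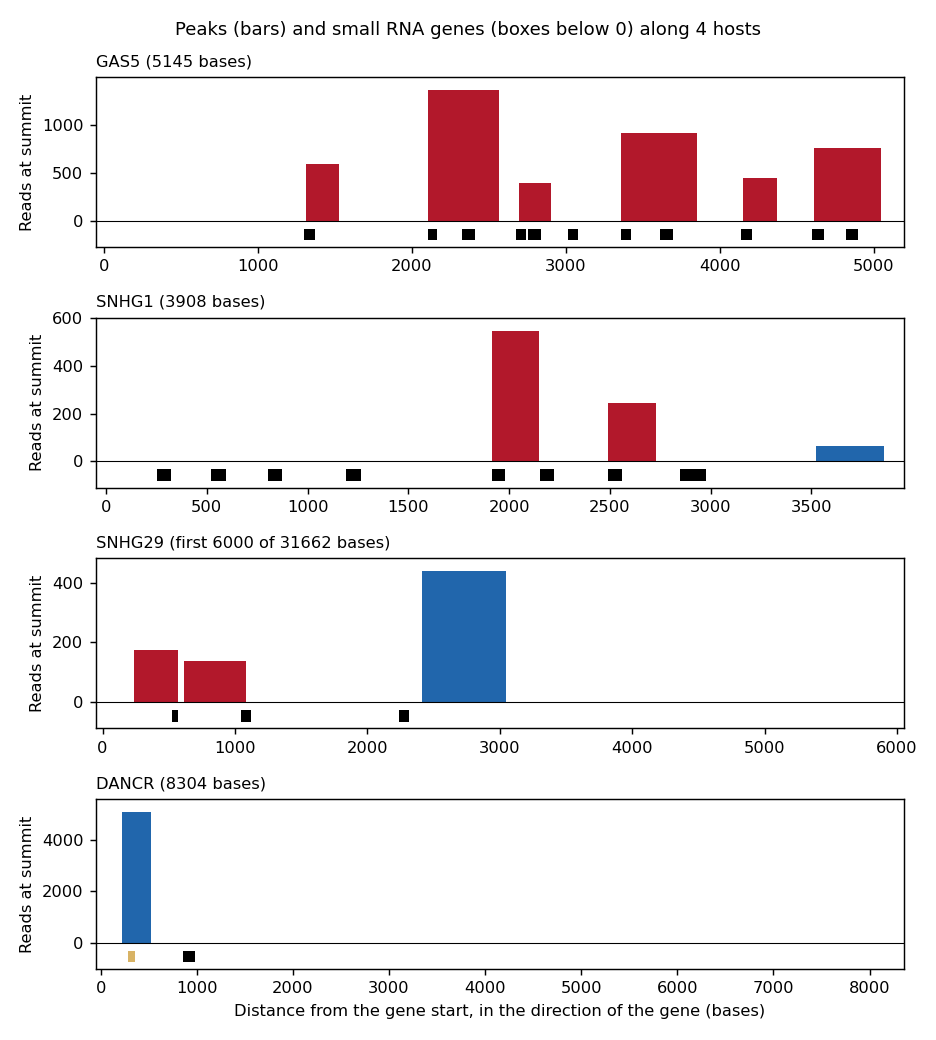
Peaks on the strand of the gene along GAS5, SNHG1, the upstream part of SNHG29, and DANCR, by distance from the gene start in bases. Bars span each peak and rise to its reads at the summit, red where a snoRNA gene is overlapped and blue where none is. Boxes below 0 are snoRNA genes (black) and MIR4449 (tan). GAS5 bars stand over 10 of its 11 snoRNA boxes, while SNHG1 bars stand over 2 of 8.

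Other hosts with a peak over a snoRNA had 1 or 2 such peaks each. SNHG29, on chromosome 17, had 175 reads (Poisson interval 150 to 203) at SNORD49B and 139 (117 to 164) at SNORD49A, at folds of 6.27 and 4.96. Its deepest peak, at chr17:16441397-16442030 with 437 reads (397 to 480) and a fold of 15.3, lay beyond SNORD65 without touching it. That peak lies also in the span of LRRC75A. SNHG22, on chromosome 18, had 1 peak of 264 reads (233 to 298) and a fold of 30.3 over the whole of SCARNA17, which starts at the same base as the host in the table. Reads of the small RNA and of the host's own upstream end cannot be told apart there. SNHG8, on chromosome 4, had 121 reads (100 to 145) at a fold of 24.1, reaching into SNORA24. SNHG25, a gene of 340 bases on chromosome 17, had 60 reads (45.8 to 77.2) at a fold of 18.7 over SNORD104, in a peak that ran past the gene end to SNORA50C. SNHG19, on chromosome 16, had 43 reads (31.1 to 57.9) at a fold of 8.21, reaching into SNORD60.

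In all, 14 of the 41 host peaks, in 7 hosts, overlapped a snoRNA gene by at least 1 base (34.1%, Clopper-Pearson interval 20.1 to 50.6%). The share was 0.252% over all peaks and 5.30% over the 698 peaks in coding snoRNA hosts. Of the 31 hosts 29 hold a snoRNA gene, so an excess over all peaks was built in by the choice of genes. The comparison with coding hosts was not adjusted for gene length. Inferred read starts fell on a snoRNA gene in 10 of the 14 peaks, as set out below. Without GAS5 the overlapping peaks were 8 of 35 (22.9%). The 14 had a median of 326 reads, or 157 without GAS5, against 30 in the other 27. Of the 145 snoRNA genes inside the hosts, 83 lie in SNHG14, among them 48 copies of SNORD115 and 30 of SNORD116, and none of these was under a peak. Of the other 62, 18 were (29.0%, 18.2 to 41.9%), and outside GAS5 8 of 51 (15.7%), against 11.1% of 332 snoRNA genes in coding hosts and 10.2% of all snoRNA genes. The high share thus came largely from GAS5. By type, the overlapped genes were 15 SNORD, 2 SNORA and 1 SCARNA, from 40 SNORD genes outside the SNORD115 and SNORD116 copies, 23 SNORA and 4 SCARNA genes.

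In GAS5 and SNHG1 some peak edges coincided with the snoRNA end to within a few bases. At SNORD29 and at SNORD31 the upstream edge of the peak was the upstream end of the snoRNA gene itself, at a distance of 0 bases. In GAS5 the upstream edge lay 2 bases inside SNORD75, 3 inside SNORD78, 11 inside SNORD80, 13 inside SNORD47, 15 inside SNORD74 and 24 inside SNORD77. The narrowest peak of the list was 200 bases wide, which was taken as the length to which each read had been extended. Extension downstream only, with no shift, was assumed, since the caller's settings are not stated. A peak less that length gives the zone in which its reads start. In 8 of the 18 pairs of a snoRNA gene and an overlapping host peak, the last start lay in a window of 20 to 50 bases past the upstream end of the snoRNA, chosen after the values were seen. These lay at 27 to 39 bases, and all 8 were in GAS5 and SNHG1. They were SNORD29, SNORD31, SNORD74, SNORD76, SNORD77, SNORD79, SNORD80 and SNORD81. The GAS5 peaks with a pair of SNORD genes therefore began within 13 bases of the upstream end of the first and had their last starts early in the second. Where the 10 kb background is deep, as at GAS5, an edge marks where the pile-up crosses the caller's threshold, and starts outside it are possible.

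The overlap was of another kind in SNHG29, SNHG8 and SNHG19. Their peaks lay upstream of the snoRNA and reached only its beginning, and the last inferred read start was at -167 bases from the upstream end of SNORD49A, -155 from that of SNORD49B, -149 from that of SNORD60 and -139 from that of SNORA24. No inferred read start hence fell on these snoRNA genes, nor on SNORA103, where the last start was at -48. Whether the sequenced reads ran on into them was not tested, because read lengths were not used. Read starts fell on a snoRNA gene in 13 of the 18 pairs, from 10 peaks. For SNORD104 the strand of the host is not in the table, and the strand of the peak was used. In coding hosts, counting only peaks on a host strand given in the table, read starts fell on the snoRNA in 17 of 29 pairs, and the last start lay in the same window in 7 of the 29, at 24 to 49 bases. SCARNA26A in YY1AP1, at 18 bases, fell just outside the window. Examples were SNORD98 in CCAR1 with 254 reads, whose upstream edge was also at 0 bases, and SNORD135 in TNPO2 with 563 reads, whose edge was at 2 bases. Of the 7, SNORD143 and SNORD144 in SEC31A lay also in the noncoding host THAP9-AS1, on the same strand, so their class is uncertain. Without them the pattern was still seen in both classes of host.

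**Figure D4:**
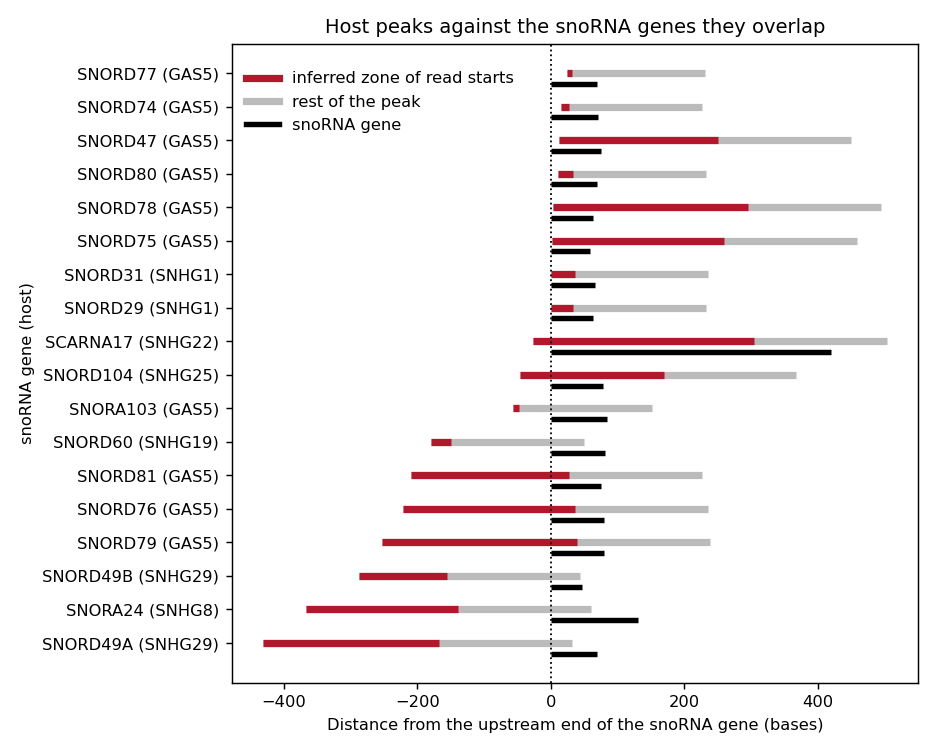
Position of each host peak relative to the upstream end of a snoRNA gene it overlaps (0, dotted line), in bases along the peak's strand. Red marks the inferred zone of read starts, grey the rest of the peak and black the snoRNA gene. Peaks of GAS5 and SNHG1 have starts on the snoRNA itself, except at SNORA103, where the last start is at -48 bases. Those of SNHG29, SNHG8 and SNHG19 end their starts at -139 bases or further upstream.

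Several hosts had peaks away from their snoRNAs. SNHG3, on chromosome 1, carries SNORA73A and SNORA73B and had 2 peaks on its strand, of 117 reads (Poisson interval 96.8 to 140) at a fold of 6.06 and of 88 reads (70.6 to 108) at 4.13, neither over a snoRNA. Both lie also in RCC1, a coding gene on the same strand, so the transcript they come from is uncertain. SNHG7, on chromosome 9, had 109 reads (89.5 to 131) at a fold of 12.1 near its start and 55 reads (41.4 to 71.6) at 4.84 near its end, both inside LOC124900276 on the same strand. SNHG4, on chromosome 5, had 52 reads (38.8 to 68.2) at a fold of 5.23 and 30 reads (20.2 to 42.8) at 3.35, both inside MATR3, which starts at the same base on the same strand and codes for the RNA-binding protein matrin. SNHG6, on chromosome 8, had 40 reads (28.6 to 54.5) at a fold of 12.3, and its strand is not in the table. That peak lies also in the span of MCMDC2, so the transcript it comes from is uncertain. Beside these 12 hosts with the deepest summits, 10 had a peak, namely SNHG5, SNHG10, SNHG11, SNHG12, SNHG14, SNHG15, SNHG16, SNHG17, SNHG21 and SNHG26. Their 16 peaks held 12 to 38 reads at folds of 3.74 to 13.95. SNHG16 had 4 of them, with 36, 29, 23 and 19 reads, whose intervals overlapped.

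Host peaks mostly followed the strand of the host. Strand was known for 27 hosts, and 34 of the 37 peaks in those lay on it (91.9%, Clopper-Pearson interval 78.1 to 98.3%). Of those in no other gene but small RNA genes, 27 of 27 did (87.2 to 100%), against 84.9% of 284 peaks in 1 other lncRNA gene only and 98.4% of 13970 in 1 coding gene only. The 3 on the other strand were shallow and all lay in another gene's span. SNHG14 is the host of SNORD115 and SNORD116 in the imprinted region linked to Prader-Willi syndrome, and its long transcript runs antisense to UBE3A. Both of its peaks, of 17 reads each, lay opposite to it. The first was in UBE3A on the strand of that gene, and the other was in the spans of SNRPN and the ribosomal protein pseudogene RPL5P1. No peak in the 595855 bases of SNHG14 was therefore on its own strand. A further SNHG29 peak, of 21 reads, also lay opposite to it, where LRRC75A overlaps. Whatever the strand, 11 of the 41 peaks lay in the span of another gene that is no small RNA gene, and 30 did not.

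Of the 37 peaks with known host strand, 12 had their centre within 500 bases of the gene start (32.4%, Clopper-Pearson interval 18.0 to 49.8%), in 11 hosts, against 20.1% in other lncRNA genes and 20.1% in coding genes. The interval includes both of those shares. Within 500 bases of the gene end lay 5 peaks (13.5%, 4.54 to 28.8%), in GAS5, SNHG1, SNHG7, SNHG17 and SNHG19, against 3.89% and 9.55%. Neither comparison was adjusted for gene length, and the peak of SNHG19, a gene of 577 bases, counted at both ends. Among hosts of known strand, SNHG22 alone had a peak over its first base. In SNHG16 the first peak began 10 bases after the start, in SNHG21 31 bases and in SNHG7 46 bases after it. The 70 bases around these 4 starts are shown because a peak enters them (RefSeq, GRCh38.p14, gene strand, 20 bases before the start and 50 from it on). Capitals mark a pyrimidine tract, a C followed by at least 4 pyrimidines, found on the gene strand from 10 bases before the start to 10 after it. The regions are chr18:49814003-49814072 (plus), chr17:76557744-76557813 (plus), chr15:82750544-82750613 (plus) and chr9:136728135-136728204 (minus).
SNHG22: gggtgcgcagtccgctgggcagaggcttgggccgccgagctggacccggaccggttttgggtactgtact
SNHG16: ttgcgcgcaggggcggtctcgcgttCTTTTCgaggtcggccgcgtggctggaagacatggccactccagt
SNHG21: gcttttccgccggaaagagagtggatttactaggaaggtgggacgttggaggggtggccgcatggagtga
SNHG7: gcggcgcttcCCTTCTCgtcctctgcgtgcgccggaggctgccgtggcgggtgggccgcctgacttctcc
SNHG16 and SNHG7 held such a tract and SNHG22 and SNHG21 did not. The tract was in 15 of the 27 hosts with a promoter sequence (55.6%, Clopper-Pearson interval 35.3 to 74.5%), against 29.2% of all 27305 promoters and 28.4% of lncRNA promoters. It was found in 11 of 19 hosts with a peak and 4 of 8 without, shares whose intervals overlapped widely. In SNHG5 and SNHG19, as in SNHG4 and SNHG32, the tract began at the annotated first base. A match is a string of letters, and the start in use in these cells was not measured.

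Fold and depth ordered the hosts differently outside GAS5 too. A fold of 20 or more was reached by 4 host peaks (9.76%, Clopper-Pearson interval 2.72 to 23.1%), in DANCR, SNHG22, SNHG8 and SNHG1, against 1.55% of all peaks. SNHG8 held 59.6% of the 203 reads of its 10 kb at its summit, SNHG22 68.2% of 387 and SNHG25 53.1% of 113. The SNHG8, SNHG22 and SNHG25 peaks had folds of 18.7 to 30.3 from 60 to 264 reads. Of the 12 hosts with the deepest summits 9 were also among the first 12 by fold.

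**Figure D5:**
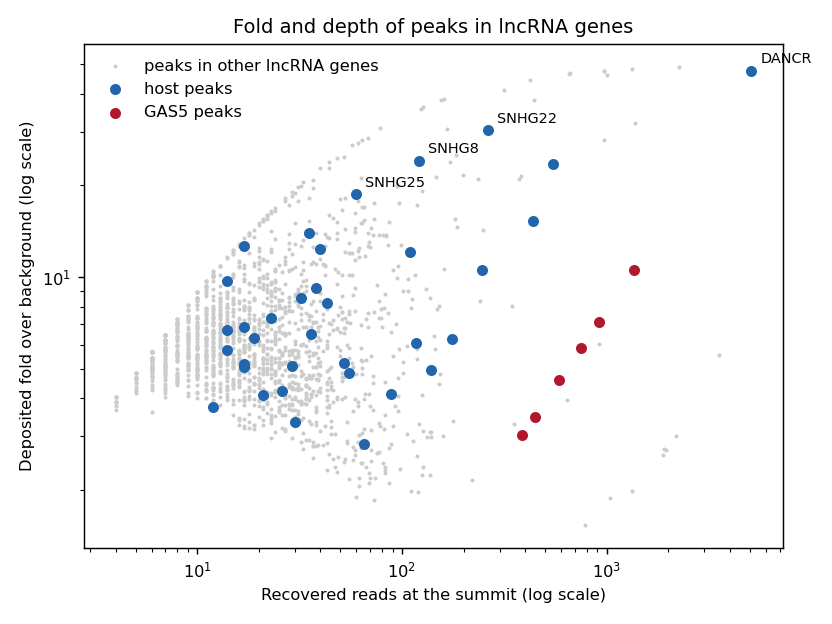
Deposited fold against recovered reads at the summit (both log scales) for the 35 host peaks outside GAS5 (blue), the 6 GAS5 peaks (red) and the 1643 peaks in other lncRNA genes (grey). DANCR stands at 5090 reads and a fold of 47.5, while the GAS5 peaks, at 388 to 1357 reads, have lower folds of 3.03 to 10.6.

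No peak centre lay in 9 hosts, SNHG9, SNHG18, SNHG20, SNHG27, SNHG28, SNHG30, SNHG31, SNHG32 and SNHG33. A peak of 7 reads overlapped the last 50 bases of SNHG31 on the opposite strand. SNHG27 and SNHG28 hold no SNORD, SNORA or SCARNA gene in the table. Expression and depth in these genes were not measured here, so a missing peak is no measure of binding.

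Genes for proteins that act on snoRNAs and on host RNAs often had a peak, counted on either strand. Of 20 genes for proteins that bind, assemble or guide snoRNAs, 17 had a peak (85.0%, Clopper-Pearson interval 62.1 to 96.8%), against 41.6% of coding genes. NOP56, a core box C/D protein and itself a snoRNA host, had 71 reads at its deepest summit. FBL, the methyltransferase fibrillarin, had 57 reads, and NOP53, a ribosome assembly factor, had 52. RUVBL1, an assembly ATPase, had 139, but this summit lay on the strand opposite to the gene, as did 5 of its 7 peaks. The deepest summit lay on the gene strand in 9 of the 17, on the opposite strand in RUVBL1 and SHQ1, and in 6 the strand is not in the table. NUFIP1, ZNHIT3 and RRP9 had none. Of 16 nonsense-mediated decay genes 14 had a peak (87.5%, 61.7 to 98.4%), all but XRN1 and RBM8A, with the deepest summit on the gene strand in 11 and strand not in the table for 3. Deepest were the helicase UPF1 with 60 reads, SMG5 with 43, the kinase SMG1 with 31 and CASC3, of the exon junction complex, with 29. The median of their deepest summits was 21.5 reads, and 35 for the snoRNA proteins.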

How the data were processed

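The data are 1 peak list of the immunoprecipitate of 1 input and 2 immunoprecipitate libraries. Per the submitters' processing notes, the tools included BWA, MACS2 and cutadapt and the build was hg38, with no versions. Pooling of replicates is not given in the labels. In the deposited list, the fold is a ratio of reads at the summit to local background. In most peaks, all host peaks among them, that background was recovered as the reads of the 10 kb around the summit, the peak included, divided by a scale of 50. A fold is thereby held below 50, and the highest of the list was 49.9. It measures how concentrated reads are locally, not enrichment over the input library. The deposited −log10 p and −log10 q are the caller's, and the deposited score equals 10 times −log10 q, cut to a whole number, in all 21031 peaks.

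Reads at each summit were recovered as the whole number that gives the deposited fold and −log10 p under a Poisson model. The tolerance was 0.0001 plus 1e-05 of −log10 p, and it was met in 21028 of 21031 peaks and in all 41 host peaks. The background was a whole count per 10 kb within 0.05 in all 41 and in 20367 of the 21031 peaks. The remaining peaks may have another background. The steps were tested on simulated data. Gene spans came from the RefSeq table, and strand and sequence from the promoter and microRNA tables. Exons were not used.

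Members and lists were chosen with earlier results of these data known, and the peak edges at snoRNA genes were examined after seeing them. No test between samples was possible, so counts carry exact intervals only. All hosts with a peak are named, with full values for the 12 deepest, and 4 genes of each other list. Python 3.11.15 and scipy 1.17.1 were used.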

Additional observations from a re-analysis of the deposited data

How the results depend on the processing

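The numbers of hosts and peaks and their median fold and reads were recomputed with peaks assigned by any overlap or by the summit, with only the more significant peaks, without the narrowest, without peaks in other genes, and on the gene strand only. The counts of peaks on snoRNAs and near gene starts and of list genes were recomputed under some of these settings or others, and tract shares under none. Of the 31 hosts, 17 to 23 had a peak, and peaks numbered 30 to 42. The median fold lay between 6.29 and 7.76. The median reads ran from 38 without GAS5 to 98.5 with only the more significant peaks, a selection that itself favours deep peaks, in place of 52. For the 56 lncRNA genes that hold a whole snoRNA gene, 32 had a peak (57.1%), and peaks numbered 63 in place of 41. With the summit required inside the snoRNA gene, peaks on snoRNAs numbered 2, and without GAS5 8, in place of 14. Within 250 bases of the gene start lay 5 peaks in place of 12. No paired analysis was possible because the data are 1 list with no values per library. Leaving out a library was not possible for the same reason. Peaks under 20 reads, 9 of the 41, carry the widest intervals relative to their value.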

Other observations

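The symbol rule leaves out hosts with other names. ZFAS1, on chromosome 20, carries SNORD12, SNORD12B and SNORD12C and had 2 peaks on its strand, in no other gene, with 88 reads (exact Poisson interval 70.6 to 108) at a fold of 6.60 and 68 reads (52.8 to 86.2) at a fold of 6.87. Neither overlapped a snoRNA gene. EPB41L4A-AS1, on chromosome 5, carries SNORA13 and had 1 peak on its strand, of 51 reads (38.0 to 67.1) at a fold of 16.6, in a span shared with EPB41L4A. In THAP9-AS1, on chromosome 4, both peaks lay over snoRNAs, SNORD143 with 236 reads at a fold of 21.0 and SNORD144 with 107 reads at 9.84, and SEC31A shares this span. These genes were singled out after their values were seen.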
